A study of Mus musculus with 9 samples.

Results

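Cytoplasmic dynein is the motor that carries vesicles, organelles and chromosomes towards the minus ends of microtubules. Its heavy chain holds the motor, intermediate and light intermediate chains bind the tail of the heavy chain and link it to cargo, and small light chains of the roadblock, LC8 and Tctex families sit on the intermediate chains. Dynein-1 works throughout the cytoplasm and on the mitotic spindle, while dynein-2 returns cargo along cilia. In the testis, dynein acts in the divisions of germ cells and in transport within spermatids. Transcript levels of 10 subunit genes were examined, all of them among the 23813 entries of the expression table and all among the 11142 genes that were tested. The genes were chosen by name with their FPKM in the libraries of all 3 groups in view, so every value of theirs below is a description and carries no p-value.

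The cells came from testes of mouse pups at postnatal day 6 that carry an Id4-eGfp transgene (line LT-11B6, C57BL/6 background), and every group was sorted on that reporter. TSPAN8-high (3 libraries) was the 1/3 of ID4-EGFP+ cells stained most strongly by an antibody against the tetraspanin TSPAN8, TSPAN8-low (3 libraries) was the 1/3 stained most weakly, and all ID4-EGFP+ (3 libraries) was the sort on the reporter alone. ID4 is an inhibitor of DNA binding whose gene marks spermatogonia at the stem cell end of the undifferentiated population. The 3 preparations of a group are separate per the labels; no source used here tells whether they shared litters. Each p-value is therefore set against the variation of preparations, which may be technical.

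The mRNA of the stained protein differed as sorted. Tspan8 had 34.0 ± 8.41 FPKM (TSPAN8-high), 9.73 ± 2.71 (TSPAN8-low) and 15.2 ± 1.39 in all ID4-EGFP+ (SD, n = 3 each), with a log2 difference of 1.72 between the fractions (SE 0.21, limma adjusted p = 0.00246). Levels of Id4 were 67.2 ± 7.17 FPKM (TSPAN8-high), 26.2 ± 8.14 (TSPAN8-low) and 35.6 ± 4.34 (all ID4-EGFP+, log2 difference 1.37, limma adjusted p = 0.00567). Both calls were lost without replicate 2 of all groups (limma adjusted p = 0.0555 and 0.101). FPKM are mapped fragments scaled for transcript length and library size; absolute depth is unknown, and the relative depth read from values under 0.05 FPKM was 0.983 to 1.05 in TSPAN8-high and 0.856 to 0.950 in TSPAN8-low, with all ID4-EGFP+ replicate 1 at 1; in each other library only 23.5 to 30.9% of the low genes lay near the commonest ratio, so this is a rough estimate. Germ cell markers summed to 3315 to 3962 FPKM in TSPAN8-high, 3092 to 3677 in TSPAN8-low and 2942 to 3457 in all ID4-EGFP+. Of 9 tested, 2 were called higher and 1 lower in the high fraction, where 3.41% and 2.15% of all tested genes were called. Sertoli markers summed to 43.9 to 139 FPKM in TSPAN8-high, 5.33 to 77.4 in TSPAN8-low and 6.66 to 62.5 in all ID4-EGFP+; none of the 9 markers with 1 entry was at 0 in all libraries. Clu averaged 34.6, 12.5 and 14.7 FPKM, Cst12 25.9, 9.88 and 10.4, Inha 15.0, 7.31 and 6.10 and Amh 0.381, 0.0471 and 0.0638 in the same order of groups. Gata4, Amhr2 and Dhh were also higher on average in TSPAN8-high than in the other groups, and Sox9 (0.103, 0.0911 and 0.0982) and Wt1 (0.314, 0.235 and 0.349) were low in all 3. Leukocyte markers summed to 12.8 to 27.8, 5.13 to 12.7 and 7.49 to 11.7 FPKM, and peritubular and interstitial markers to 4.19 to 12.6, 1.85 to 9.03 and 2.32 to 5.33, again in that order. Most of the leukocyte sum was Cd68, which averaged 13.0, 8.76 and 9.27 FPKM. Tyrobp (3.57, 0.274 and 0.0830) and Lyz2 (2.98, 0.0403 and 0.0748) were found mainly in TSPAN8-high. Ptprc (0.138, 0.0170 and 0.0580) and Csf1r (0.126, 0 and 0) were low in every group. The sums of Leydig, endothelial and red blood cell markers stayed at or below 6.35, 1.66 and 0.833 FPKM in every library. Between TSPAN8-high and TSPAN8-low, limma called 0 of 3 tested Sertoli markers, 0 of 3 peritubular and interstitial markers and 0 of 1 leukocyte markers, where 5.56% of all tested genes were called. Of these, 2, 1 and 1 had an unadjusted p under 0.05, where 22% of all tested genes had one. With the replicate number as a block limma called 3, 1 and 1 of them, all higher, where 11.8% of all tested genes were called higher.

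The subunits differed in level by more than 2 orders of magnitude, and their order was nearly the same in the 3 groups. The light chain genes Dynll1 and Dynlrb1 were highest, Dynll1 at 660.0 ± 13.7 FPKM in TSPAN8-high, 724 ± 78.1 in TSPAN8-low and 672 ± 42.1 in all ID4-EGFP+, and Dynlrb1 at 648 ± 51.8, 776 ± 128 and 697 ± 71.9 FPKM in the same order (SD, n = 3 each). These 2 genes overlapped in every group and could not be ranked. Dynll2 followed, then Dync1i2, and both stood clear of their neighbours in the order in all 3 groups. Dync1li1, Dync1li2 and Dync2li1, which encode light intermediate chains, formed a middle tier between 9.82 and 23.0 FPKM over the 9 libraries; neighbours within it overlapped in every group. The heavy chain genes Dync1h1 and Dync2h1 and the intermediate chain gene Dync1i1 were lowest. Dync2h1 and Dync1i1 overlapped in TSPAN8-high but not in TSPAN8-low or all ID4-EGFP+. FPKM corrects for length, but how evenly reads covered the longest transcripts (14342 bases for Dync1h1 and 14264 for Dync2h1 in GENCODE M21) was not tested.

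**Figure D1:**
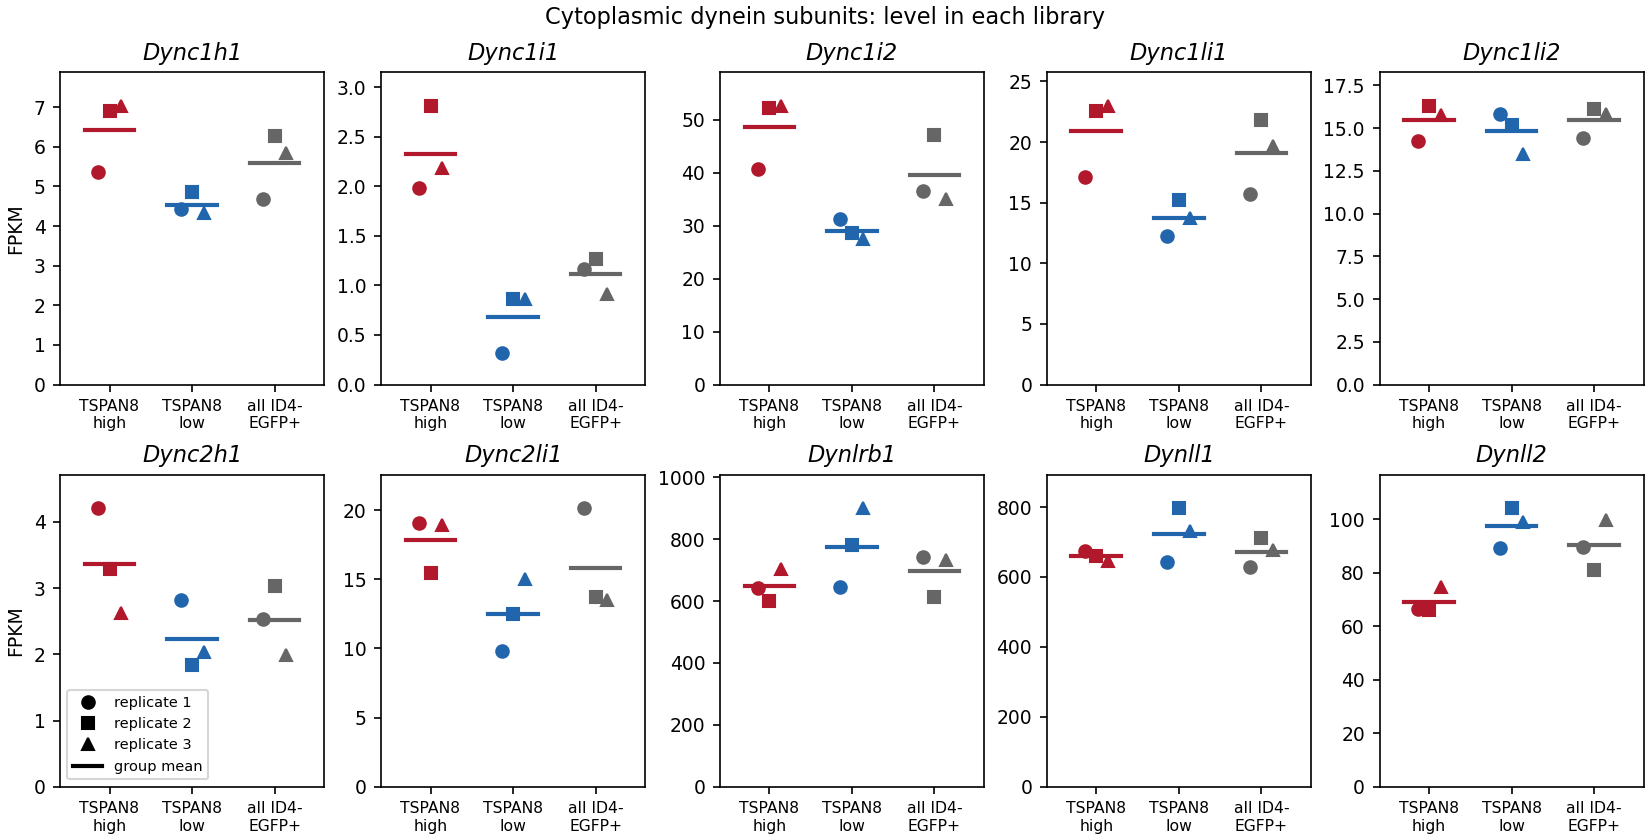
FPKM of each subunit gene (vertical axes, each from 0) in the 9 libraries, by group; symbols mark the replicate number and horizontal lines the group mean of 3. In Dync1h1, Dync1i1, Dync1i2, Dync1li1 and Dync2li1 all TSPAN8-high points lie above all TSPAN8-low points, and in Dynll2 all lie below.

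Between the stained fractions, transcripts of the dynein-1 motor and its cargo-binding chains were mostly higher in TSPAN8-high. Those of the light chains among the 10 were lower or close. Dync1h1, the dynein-1 heavy chain gene, had 5.36, 6.89 and 7.04 FPKM in TSPAN8-high against 4.44, 4.85 and 4.34 in TSPAN8-low and 4.67, 6.27 and 5.84 in all ID4-EGFP+. The fractions did not overlap, and the all ID4-EGFP+ libraries spanned the gap between them. The log2 difference of FPKM + 1 between TSPAN8-high and TSPAN8-low was 0.42 (SE 0.16), a ratio of mean FPKM of 1.42.

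The intermediate chain genes showed the largest differences of the 10. Dync1i2, the broadly expressed of the intermediate chain genes in mammals, had 40.8, 52.2 and 52.7 FPKM in TSPAN8-high against 31.2, 28.6 and 27.5 in TSPAN8-low and 36.6, 47.1 and 34.9 in all ID4-EGFP+. Every TSPAN8-low library lay below every library of the other groups. The log2 difference between the fractions was 0.71 (SE 0.16) and the ratio 1.67. Dync1i1, a paralog known mainly from neurons, had 1.98, 2.81 and 2.18 FPKM in TSPAN8-high against 0.319, 0.867 and 0.860 in TSPAN8-low and 1.17, 1.27 and 0.915 in all ID4-EGFP+. The 3 groups did not overlap, and TSPAN8-low replicate 1 stood lowest. The log2 difference between the fractions was 0.99 (SE 0.17) and the ratio of means 3.41. With a pseudocount of 0.1 in place of 1 the log2 difference was 1.72. Dync1i1 reached 1 FPKM in 3 TSPAN8-high, 0 TSPAN8-low and 2 all ID4-EGFP+ libraries, so it passed the filter on low values through the groups where it was higher; the other 9 subunits passed in all 9 libraries.

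The light intermediate chains of dynein-1, which hold cargo adaptors, did not share 1 pattern: Dync1li1 separated the fractions and Dync1li2 did not. Dync1li1 had 17.1, 22.5 and 23.0 FPKM in TSPAN8-high against 12.2, 15.2 and 13.7 in TSPAN8-low and 15.7, 21.8 and 19.7 in all ID4-EGFP+. The 3 TSPAN8-low libraries were below all others, and the log2 difference between the fractions was 0.57 (SE 0.17). Its paralog Dync1li2 had 14.2, 16.3 and 15.8 FPKM in TSPAN8-high against 15.8, 15.2 and 13.5 in TSPAN8-low and 14.4, 16.1 and 15.8 in all ID4-EGFP+. Here the groups overlapped throughout, and the log2 difference between the fractions was 0.06 (SE 0.14), with a sign that turned negative under some of the settings tried, to -0.03 after quantile normalization.

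Both dynein-2 genes among the 10 had differences above 0. Dynein-2 genes outside the 10, described further below, did not all do so (Tctex1d2, -0.48). Dync2h1, the heavy chain gene of the ciliary motor, had 4.21, 3.29 and 2.62 FPKM in TSPAN8-high against 2.82, 1.84 and 2.03 in TSPAN8-low and 2.54, 3.03 and 1.99 in all ID4-EGFP+. The groups overlapped, though TSPAN8-high was higher within each replicate number, and the log2 difference was 0.43 (SE 0.18). Dync2li1, its light intermediate chain gene, had 19.0, 15.5 and 18.9 FPKM in TSPAN8-high against 9.82, 12.5 and 15.0 in TSPAN8-low and 20.1, 13.7 and 13.5 in all ID4-EGFP+. The fractions did not overlap, with a log2 difference of 0.50 (SE 0.19), while the all ID4-EGFP+ libraries overlapped both.

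The light chain genes among the 10 all had differences below 0, and Dynll2 separated the fractions. Dynll2, one of the genes for LC8, a small dimeric hub protein that binds dynein and many other partners, had 66.3, 66.0 and 74.6 FPKM in TSPAN8-high against 89.1, 104 and 99.2 in TSPAN8-low and 89.7, 81.2 and 99.8 in all ID4-EGFP+. All 3 TSPAN8-high libraries lay below all 6 others, and the log2 difference between the fractions was -0.49 (SE 0.14), a ratio of 0.707. Dynll1, the other LC8 gene, ranged from 646 to 673 FPKM in TSPAN8-high, from 642 to 797 in TSPAN8-low and from 628 to 712 in all ID4-EGFP+. The groups overlapped, and the log2 difference was -0.13 (SE 0.14). Dynlrb1, which encodes a roadblock light chain, ranged from 599 to 702 FPKM in TSPAN8-high, from 646 to 901 in TSPAN8-low and from 615 to 744 in all ID4-EGFP+. These overlapped too, with a log2 difference of -0.25 (SE 0.16).

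Of the 10 subunits, 7 had a log2 difference above 0 between TSPAN8-high and TSPAN8-low, against 56.6% of all tested genes, and the median of the 10 was 0.42 against 0.05 over all tested genes. With library medians set equal, after quantile normalization or with the authors' normalized values, 6 were above 0, the sign of Dync1li2 being the one that turned. For 5 subunits every TSPAN8-high value was above every TSPAN8-low value, as for 15.9% of tested genes, and for 1 every value was below, as for 9.71%. In the limma fit over all genes, 2 of the 10 (Dync1i1 and Dync1i2) were among the called genes, where 5.56% of tested genes were called. As stated above, Dync1i1 passed the filter on low values only through the groups where it was higher. With the replicate number as a block the calls held 5 of the 10 (Dync1h1, Dync1i1, Dync1i2, Dync1li1 and Dynll2), where 19.1% of tested genes were called. In the fit without the block, 0 of the 10 were called without replicate 2 or without replicate 3 of all groups, 1 without replicate 2 or 3 of either fraction or without a filter, and 3 without replicate 1 of TSPAN8-high, with equal library medians or with the authors' normalized values. Since the levels were known when the genes were named, nothing is read from these counts.

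**Figure D2:**
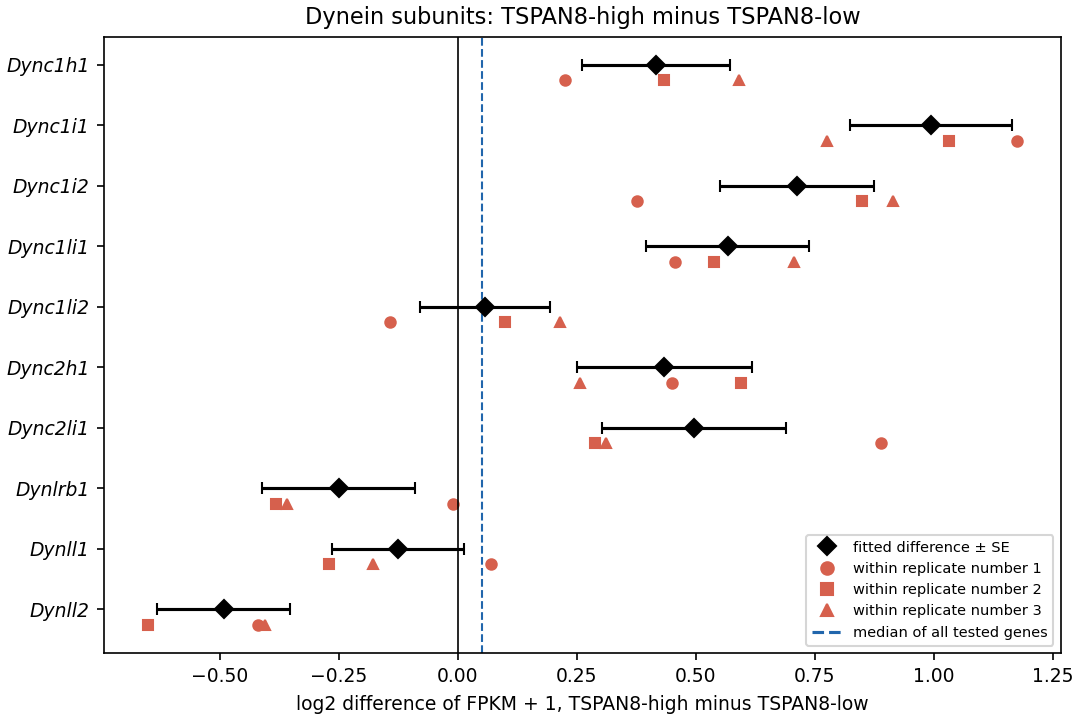
Difference between TSPAN8-high and TSPAN8-low on the log2(FPKM + 1) scale (horizontal axis) for each subunit gene, with the fitted difference and its SE (n = 3 each) and the differences within each replicate number. The dashed line is the median of all tested genes (0.05); the intermediate chain genes lie farthest to the right and Dynll2 farthest to the left.

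The replicate numbers gave the same direction within each for Dync1h1, Dync1i1, Dync1i2, Dync1li1, Dync2h1 and Dync2li1 (higher in TSPAN8-high in 3 of 3, as for 31.4% of tested genes) and for Dynll2 and Dynlrb1 (lower in 3 of 3, as for 22%). The sum of Sertoli markers was also higher in TSPAN8-high within each number, by ratios of 8.23, 5.21 and 1.80 for numbers 1, 2 and 3. Over the same numbers the log2 difference was 0.23, 0.43 and 0.59 for Dync1h1, 0.38, 0.85 and 0.91 for Dync1i2 and 0.46, 0.54 and 0.71 for Dync1li1. It was 1.17, 1.03 and 0.77 for Dync1i1, 0.89, 0.29 and 0.31 for Dync2li1 and 0.45, 0.59 and 0.26 for Dync2h1. With 3 numbers, and a pairing taken from these same data, no relation between these differences and the Sertoli ratios was tested. For Dynll2 the differences were -0.42, -0.65 and -0.41. The sum of leukocyte markers was higher in TSPAN8-high by ratios of 2.50, 2.00 and 2.19. The part of these cells' RNA in the dynein values was not tested, and in bulk samples fewer cells of a type and less RNA per cell cannot be told apart.

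Transcript length was only weakly related to the difference between the fractions (Spearman correlation 0.098), and mainly the shortest transcripts stood apart. The length of a gene was that of its longest protein-coding transcript, which need not be the transcript expressed here. Among 10037 tested genes with a length in GENCODE M21, the shortest of 10 equal bins (216 to 1166 bases) had a median log2 difference of -0.13 between TSPAN8-high and TSPAN8-low, while the medians of the other 9 bins lay between 0.01 and 0.12. Dynlrb1 (788 bases) is in that shortest bin, and its difference relative to the bin's median was -0.12. Dynll2 (2476 bases) and the genes Dync1i1, Dync1i2 and Dync1li1 (2601 to 2718 bases) share a bin, and relative to its median their differences were -0.59, 0.90, 0.61 and 0.47. Dync1h1 and Dync2h1, in the bin of longest transcripts, had 0.35 and 0.37.

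The balance between paralogs was described within libraries, where scaling between libraries cancels. Dync1i1 made up 4.57 ± 0.569% of the summed intermediate chain FPKM in TSPAN8-high, 2.33 ± 1.14% in TSPAN8-low and 2.75 ± 0.291% in all ID4-EGFP+ (SD, n = 3 each). The TSPAN8-high shares (3.98 to 5.11%) lay above all others. Dync1li1 made up 57.3 ± 2.42% of the light intermediate chain FPKM of dynein-1 in TSPAN8-high, 48.0 ± 3.88% in TSPAN8-low and 55.0 ± 2.72% in all ID4-EGFP+. The fractions did not overlap, and Dync1li1 was the more abundant paralog in 8 of the 9 libraries, all but TSPAN8-low replicate 1. Dynll1 made up 90.5 ± 0.771% of LC8 FPKM in TSPAN8-high, 88.1 ± 0.318% in TSPAN8-low and 88.1 ± 1.42% in all ID4-EGFP+, a shift of 2.43 percentage points between the fractions with no overlap. Dync2h1 made up 34.5 ± 8.65%, 32.7 ± 5.72% and 31.0 ± 5.09% of heavy chain FPKM in the same order of groups, and these shares overlapped.

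**Figure D3:**
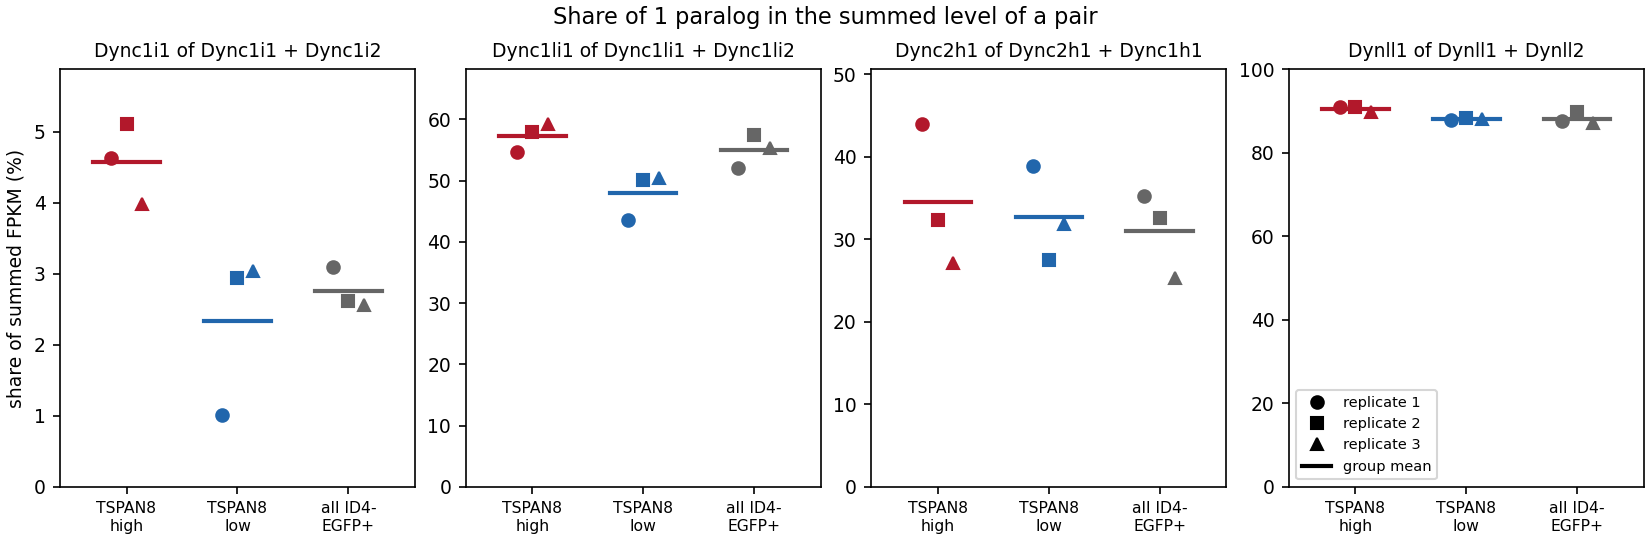
Share of one paralog in the summed FPKM of a pair (vertical axes in %, each from 0) in the 9 libraries, by group; symbols mark the replicate number and horizontal lines the group mean of 3. The shares of Dync1i1, Dync1li1 and Dynll1 lie above every TSPAN8-low value in all TSPAN8-high libraries, and those of Dync2h1 overlap.

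The LC8 genes are the closest of these paralogs, and their coding sequences show how far reads can tell them apart. They are given from GENCODE M21 transcripts, start to stop codon, with the bases that differ between the genes in capitals (Dynll1 is on chromosome 5 and Dynll2 on chromosome 11).
Dynll1: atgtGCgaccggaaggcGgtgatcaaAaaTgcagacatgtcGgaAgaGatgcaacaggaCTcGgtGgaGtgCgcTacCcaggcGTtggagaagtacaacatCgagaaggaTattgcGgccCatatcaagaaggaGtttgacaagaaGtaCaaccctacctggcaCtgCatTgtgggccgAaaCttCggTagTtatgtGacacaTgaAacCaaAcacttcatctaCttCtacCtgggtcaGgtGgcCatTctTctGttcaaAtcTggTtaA
Dynll2: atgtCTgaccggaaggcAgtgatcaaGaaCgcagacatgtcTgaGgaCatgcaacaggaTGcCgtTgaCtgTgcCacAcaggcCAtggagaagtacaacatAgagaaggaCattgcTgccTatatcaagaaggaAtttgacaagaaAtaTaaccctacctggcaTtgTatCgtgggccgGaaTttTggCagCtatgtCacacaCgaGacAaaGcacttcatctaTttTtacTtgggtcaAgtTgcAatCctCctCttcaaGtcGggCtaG
Both are 270 bases long and differ at 51 of them, 46 of which are the last base of a codon, and the changes touch 49 of 90 codons (stop codon included). The longest identical run, in the coding sequences and also in the whole transcripts, is 16 bases, well under the read length of 100 bases. The coding sequences of Dync1i1 and Dync1i2 are 71.0% identical over their alignment, those of Dync1li1 and Dync1li2 65.3% and those of Dync2h1 and Dync1h1 49.9%, and the longest runs shared by their transcripts are 17, 15 and 20 bases.

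RefSeq promoter windows (300 bases around the annotated start, GRCm38.p6) were at hand for 7 of the 10 subunits, in 9 windows; the other genes are Dync1li2, Dync2li1 and Dynll2. The windows of Dync1h1, Dync1li1 and Dync1i1 are shown as examples of genes that stood higher in TSPAN8-high while differing in level. Dync1i2 (log2 difference 0.71) and Dync2h1 (0.43) were also higher on average, and their windows, not shown, hold no NRF1 core, so the choice is not typical of the higher subunits. In capitals are E-boxes (CANNTG, the motif of the E-proteins that ID proteins hold off DNA) and the core of the NRF1 motif (GCATGCG). Both strands were searched, and the strands' matches overlap.
Dync1h1, chr12:110601145-110601444, + strand: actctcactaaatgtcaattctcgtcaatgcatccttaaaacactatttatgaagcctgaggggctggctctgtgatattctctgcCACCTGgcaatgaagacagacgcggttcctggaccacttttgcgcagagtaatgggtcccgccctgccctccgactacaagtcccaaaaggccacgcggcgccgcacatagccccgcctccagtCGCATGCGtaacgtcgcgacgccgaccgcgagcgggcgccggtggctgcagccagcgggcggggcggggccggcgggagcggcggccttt
Dync1li1, chr9:114688581-114688880, + strand: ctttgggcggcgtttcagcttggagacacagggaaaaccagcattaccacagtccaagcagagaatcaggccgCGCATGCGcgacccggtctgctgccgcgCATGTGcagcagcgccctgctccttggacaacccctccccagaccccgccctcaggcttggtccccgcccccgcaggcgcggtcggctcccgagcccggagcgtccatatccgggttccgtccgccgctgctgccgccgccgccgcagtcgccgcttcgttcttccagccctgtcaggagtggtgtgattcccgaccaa
Dync1i1, chr6:5725389-5725688, + strand: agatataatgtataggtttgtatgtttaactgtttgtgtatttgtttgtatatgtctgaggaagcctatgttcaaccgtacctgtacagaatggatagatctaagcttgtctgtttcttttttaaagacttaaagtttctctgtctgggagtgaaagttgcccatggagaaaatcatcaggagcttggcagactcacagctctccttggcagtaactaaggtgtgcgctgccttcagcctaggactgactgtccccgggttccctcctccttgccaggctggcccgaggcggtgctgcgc
The Dync1h1 and Dync1li1 windows held the NRF1 core at 1 place each, read on both strands. The other 7 windows of the subunits had no match. Of all 32851 windows, 3.58% hold the core. That share was not matched for CpG, which the core itself contains. An E-box stood in 1 place in each of the Dync1h1 and Dync1li1 windows and in none in the Dync1i1 window, and 72.3% of all windows hold one. The Dync1i1 window had 6 CpG dinucleotides and 46.7% G or C, against 30 and 62.3% for Dync1h1, 31 and 68.0% for Dync1li1 and a median of 7 and 52.7% over all windows. Dynll1, the more abundant LC8 gene, had 34 CpG and 71.0% G or C. Matches describe letters in these windows and were not tested against expression.

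Against all ID4-EGFP+ cells, the 2 fractions share 1 set of control libraries, so their differences are given side by side. In TSPAN8-high the log2 differences from all ID4-EGFP+ were 0.65 for Dync1i1, 0.29 for Dync1i2, 0.17 for Dync1h1, 0.13 for Dync1li1 and -0.38 for Dynll2 (SE 0.14 to 0.17). In TSPAN8-low they were -0.35, -0.42, -0.24, -0.44 and 0.11 for the same genes. Only Dync1i1 (higher) and Dynll2 (lower) had TSPAN8-high values clear of all ID4-EGFP+, where 6.79% of tested genes were clear on the higher and 8.34% on the lower side. In TSPAN8-low the values of Dync1i1, Dync1i2 and Dync1li1 were clear on the lower side, as for 10.8% of tested genes, and 0 subunits were clear on the higher side, as for 3.44%. Limma called 0 of the 10 in either comparison, where 0.144% of tested genes were called for TSPAN8-high and 0% for TSPAN8-low (1085 and 910 genes at an unadjusted p under 0.05). With the block the calls held Dync1i1 in TSPAN8-high, where 3.09% of tested genes were called. They held 0 of the 10 in TSPAN8-low, where 0.0449% were. Dync1i1 had passed the filter on low values through the groups where it was higher. Differences lay above 0 for 6 of the 10 in TSPAN8-high, as for 48.5% of tested genes, and for 3 of the 10 in TSPAN8-low, as for 37.6%. The levels were known when the genes were named, so nothing is read from these counts or calls.

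Genes that work with dynein were tested in the same fit, from 8 lists with 90 genes on 1 entry each, of which 71 passed the filter on low values. Between the fractions limma called 2 of the 71 higher in TSPAN8-high and 0 lower, where 5.56% of all tested genes were called; 19 had an unadjusted p under 0.05, where 22% of all tested genes had one. Their median log2 difference was 0.17 against 0.05 over all tested genes, and 51 of 71 lay above 0, where 56.6% of all tested genes did. With library medians set equal the 2 calls were 1 higher (Actr1a) and 1 lower (Tctex1d2). With the block 10 were called higher and 3 lower, where 11.8% and 7.34% of tested genes were called. Against all ID4-EGFP+, limma called 0 of the 71 in either fraction, and with the block 0 in both. An unadjusted p under 0.05 was found for 3 in TSPAN8-high and 10 in TSPAN8-low, where 9.74% and 8.17% of all tested genes had one.

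Dynactin, the complex that joins dynein to cargo and makes it processive, had 1 of 12 members called, where 5.56% of all tested genes were called. Actr1a, which encodes the actin-related protein of the dynactin filament, had 14.5, 15.7 and 16.5 FPKM in TSPAN8-high against 7.48, 9.34 and 11.3 in TSPAN8-low, without overlap. It rose by a log2 difference of 0.69 (SE 0.16, limma adjusted p = 0.0294). This call did not hold with replicate 2 or 3 of TSPAN8-high, replicate 1 or 2 of TSPAN8-low or any 1 replicate number left out, without a filter and after quantile normalization (adjusted p up to 0.255 over the settings tried). Of the other members, Actr1b, a paralog of Actr1a, had 0.37 (limma adjusted p = 0.205), Capza1, for a capping protein, 0.18 (0.617) and Dctn3 -0.21 (0.498).

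The intraflagellar transport particles, which dynein-2 carries back along cilia, had 1 of 21 members called, where 5.56% of all tested genes were called. Ift81, for a tubulin-binding subunit of IFT-B, had 16.3, 18.0 and 16.7 FPKM in TSPAN8-high against 11.2, 11.7 and 10.5 in TSPAN8-low. It rose by 0.57 (SE 0.13, limma adjusted p = 0.0306), without overlap; the call was lost under 12 of 19 settings, among them equal medians, quantile normalization, the authors' normalized values and the omission of any 1 of 5 of the 6 fraction libraries (adjusted p up to 0.264). Ift57 had 0.52 (limma adjusted p = 0.0980), Ttc30b 0.55 (0.150) and Hspb11, for a small IFT-B subunit, -0.45 (0.127), and with the block all 3 passed (0.0135 to 0.0257). In all, the block called 3 of the 21 higher and 2 lower, where 11.8% and 7.34% of all tested genes were called. Without it, 7 of the 21 had an unadjusted p under 0.05, where 22% of all tested genes had one. The median of the list was 0.26 against 0.05 over all tested genes, and 16 of 21 lay above 0, where 56.6% of all tested genes did.

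Other subunits of cytoplasmic dynein, outside the 10, had 0 of 7 called in limma, where 5.56% of all tested genes were called. Of the 7, 2 had an unadjusted p under 0.05, where 22% of all tested genes had one. Tctex1d2, a light chain gene of dynein-2, had 116, 100.2 and 96.3 FPKM in TSPAN8-high against 145, 157 and 134 in TSPAN8-low. The values did not overlap, and the log2 difference was -0.48 (SE 0.14, limma adjusted p = 0.0646, 0.0133 with the block). Wdr60, for an intermediate chain of dynein-2, had 0.42 (limma adjusted p = 0.188), Dynlt3 -0.19 (0.479) and Dynlrb2, the second roadblock gene, 0.40 (0.581), at 2.57 ± 0.532 FPKM in the high and 1.99 ± 1.44 in the low fraction. Dynlt1c and Dynlt1f stood on several entries and were left out, and Dynlt1a and Dynlt1b belong to the same family of near-identical copies, so their values are uncertain.

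The regulators of dynein had 0 calls in limma, where 5.56% of all tested genes were called and 22% had an unadjusted p under 0.05. Among the LIS1 and NDE1 regulators (4 tested, 1 with an unadjusted p under 0.05), Ndel1, which tethers LIS1 to dynein, had 0.46 (limma adjusted p = 0.118, 0.0260 with the block), Nudc 0.47 (0.435, 0.0380 with the block), Nde1 0.21 (0.472) and Pafah1b1, which encodes LIS1 itself, -0.08 (0.846). Of 14 activating adaptors, which lock dynein onto dynactin and cargo, 2 had an unadjusted p under 0.05. These were Ninl at 0.44 (limma adjusted p = 0.119, 0.0257 with the block) and Spdl1, the adaptor at kinetochores, at 0.42 (0.190, 0.0424 with the block), while Hook2 had 0.31 (0.346) and Hap1 0.18 (0.518). The 6 genes that recruit dynein to kinetochores and the cell cortex in mitosis all lay above 0, where 56.6% of all tested genes did, with a median of 0.33. Of the 6, 3 had an unadjusted p under 0.05, where 22% of all tested genes had one. Zwilch had 0.41 (limma adjusted p = 0.0928, 0.0283 with the block), Gpsm2 0.35 (0.161, 0.0416 with the block), Numa1 0.33 (0.217) and Cenpf 0.33 (0.291).

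For LC8, neither its known regulator nor its tested partners were called (0 of 5, limma), where 5.56% of all tested genes were called. Of the 5, 1 had an unadjusted p under 0.05, where 22% of all tested genes had one. Bcl2l11, for the BH3-only protein BIM that LC8 binds, had -0.33 (limma adjusted p = 0.178), Myo5a, for a myosin that carries LC8 as a light chain, 0.28 (0.326), Nek9 0.18 (0.567) and Trp53bp1 0.07 (0.838). Axonemal dyneins, the motors of motile cilia and sperm tails, were low: of 14 genes on 1 entry, 11 stayed under 1 FPKM in all 9 libraries and the highest value of any was 2.50 FPKM. Their 2 tested genes, Dnahc11 and Dnahc1, had 0.13 (limma adjusted p = 0.617) and 0.36 (0.161).

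**Figure D4:**
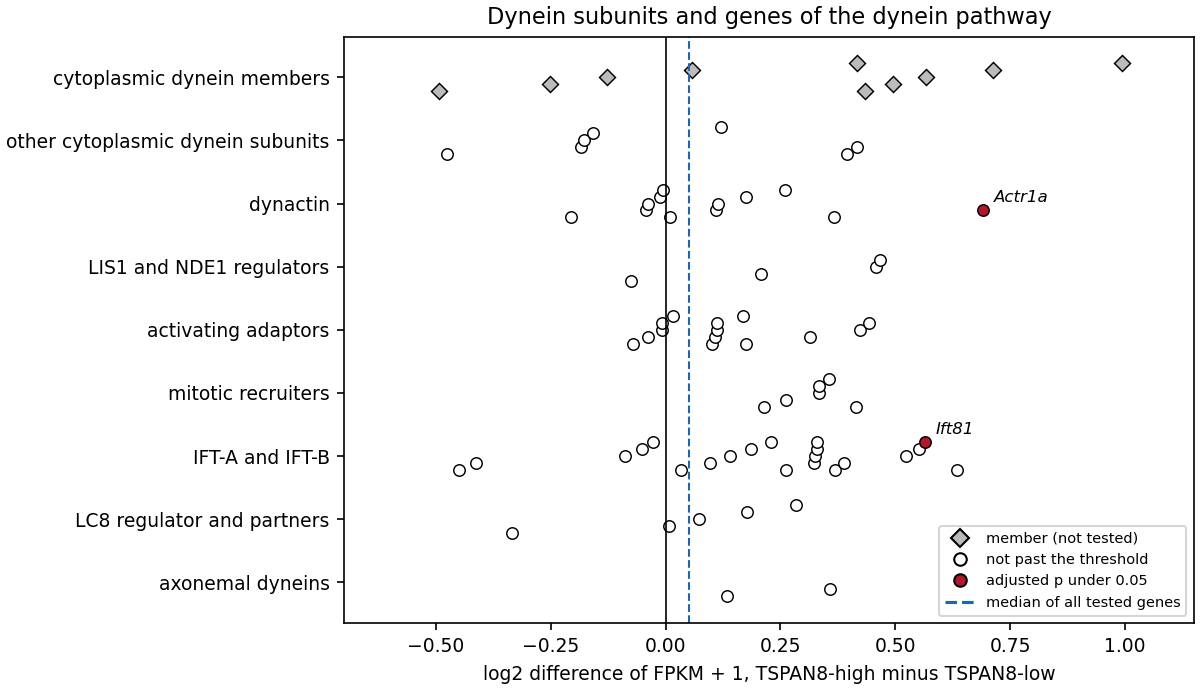
Difference between TSPAN8-high and TSPAN8-low on the log2(FPKM + 1) scale (horizontal axis) for the subunit genes (diamonds) and for the tested genes of 8 lists (circles), 1 row per list; filled circles passed the limma threshold (n = 3 each). The dashed line is the median of all tested genes (0.05), and the called genes are Actr1a (0.69) and Ift81 (0.57).

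The genes whose profile over the 9 libraries was most like that of the intermediate chain genes were found by the root mean square difference of mean-centred log2(FPKM + 1), a description in which all genes share the same libraries. The likeness depends on the pseudocount of 1, with which Dync1i1 and the far more abundant Ifnar2 both had a log2 difference of 0.99 between the fractions. With a pseudocount of 0.1 that of Dync1i1 was 1.72, and its nearest profiles were not sought there. For Dync1i1 they were Ifnar2 (0.07), Zscan5b (0.09), Mrc1 (0.13), Klf6 (0.14) and Ell3 (0.14). For Dync1i2 they were Cenpc1 (0.09), Atf7ip (0.09), Sugp2 (0.09), Rasa3 (0.09) and Usp11 (0.10). Ifnar2, for a subunit of the type I interferon receptor, stood at 33.7 FPKM in TSPAN8-high, 16.7 in TSPAN8-low and 22.0 in all ID4-EGFP+, and Cenpc1, for a centromere protein, at 25.6, 15.5 and 19.3 in the same order. Mrc1, for the macrophage mannose receptor, was low at 1.37, 0.322 and 0.585 FPKM. The part of other cells' RNA in these profiles was not tested.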

How the data were processed

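RNA sequencing libraries of sorted mouse spermatogonia were analysed from the authors' deposited tables. SMART-Seq v4 cDNA was turned into Nextera XT libraries, per the labels' protocols, and sequenced as 100-base read pairs. The submitters' processing notes name mm9, Cufflinks, Bowtie2 2.2.3.0, TopHat2 2.0.12 and FastQC. No source used here gives the annotation or the version of Cufflinks. The deposited FPKM were the values used. The authors' deposited normalized table, taken as signal with an unstated scaling, served as an alternative, and its deposited log10 copy was not used. FPKM are not counts, so no count model was run.

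Columns were matched to samples by population letters and sample number. The 262 symbols on several of the 23813 entries were left out, and 27 entries showed dates. Genes with at least 1 FPKM in at least 3 of 9 libraries (11142) entered limma 3.58.1 (R 4.3.3) on log2(FPKM + 1), which understates changes of low genes, in 1 fit over 9 libraries with 3 groups (eBayes with trend, two-sided), and were called at a Benjamini-Hochberg adjusted p under 0.05; the fit was tested on simulated data. Means ± SD are of FPKM. The subunits, lists and tests were chosen with earlier results of these data known. Named genes were the subunits, up to 4 genes per list with the smallest p between the fractions, the 5 nearest profiles of the 2 subunits with the largest differences, and Tspan8 and Id4 as checks. The lists were other cytoplasmic dynein subunits, dynactin, LIS1 and NDE1 regulators, activating adaptors, mitotic recruiters, IFT-A and IFT-B, LC8 regulator and partners and axonemal dyneins, and markers of germ, Sertoli, Leydig, peritubular and interstitial, endothelial, leukocyte and red blood cells.

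Libraries of different groups with the same number deviated together from their group means (9 pairs, r of 0.26 to 0.48 across genes; -0.46 to 0.28 for the 18 other pairs), a pattern in the data by which numbers were taken to pair samples. Sequences come from GENCODE M21 and RefSeq (GRCm38.p6), a later build than the files', matched by symbol. Alternatives changed the pseudocount, filter, scaling, table, block, groups in the fit and libraries. Python 3.11.15, Biopython 1.88 and matplotlib 3.10.9 were used for sequences and plots.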

Additional observations from a re-analysis of the deposited data

How the results depend on the processing

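Of the subunits, between TSPAN8-high and TSPAN8-low, the sign of Dync1li2 turned in some settings (-0.03 to 0.16), and the signs of the other 9 held in all 20 settings; an adjustment for transcript length among them was chosen after seeing the data. The differences in paralog share lay between 2.03 and 2.87 points for Dynll1, 1.56 and 2.89 for Dync1i1, 7.03 and 10.6 for Dync1li1 and -3.03 and 5.41 for Dync2h1, whose sign turned, when libraries were left out.

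Between TSPAN8-high and TSPAN8-low 619 genes were called (380 higher, 239 lower), 293 without a filter and 2131 with the replicate block; with libraries left out the count ran from 10 to 633, with 10 without replicate 2 of all groups, 90 without replicate 3, 372 without replicate 1, 185 without TSPAN8-high replicate 2 and 284 without its replicate 3, and 364 without TSPAN8-low replicate 1 and 288 without its replicate 2. Higher and lower calls were 228 and 362 with equal library medians, 250 and 300 after quantile normalization and 223 and 307 with the authors' normalized values. Of the 2 dynein pathway calls, both counted higher, 1 higher and 1 lower were called with equal library medians, 1 was left without a filter, with the authors' values and with only the 2 groups, 0 after quantile normalization, 13 with the replicate block and 0 to 2 with libraries left out. For TSPAN8-high against all ID4-EGFP+ the 16 calls became 0 without a filter, 7 with the authors' values, 344 with the replicate block, 27 with only the 2 groups and 0 to 111 with libraries left out (6 without replicate 2 of all groups, 0 without replicate 1 or 3; 0 without all ID4-EGFP+ replicate 1 or 3; leaving out replicate 1, 2 or 3 of TSPAN8-high gave 1, 3 or 66, and of TSPAN8-low 111, 6 or 10). For TSPAN8-low against all ID4-EGFP+ limma made 0 calls (910 genes had an unadjusted p under 0.05) and 5 with the replicate block, and 0 to 1 with libraries left out. The causes were not tested. With 3 libraries a group and no absolute depth, the precision of low genes such as Dync1i1 is not known.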
